A study of Mus musculus with 12 samples.

Results

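The genes described here encode the proteasome, the protease complex that degrades proteins marked with ubiquitin. They are the rows of the deposited count table whose gene name begins with Psma, Psmb, Psmc, Psmd, Psme, Psmf or Psmg followed by a digit, without names that contain -ps. The rule found 50 of 39179 genes, and 49 of them had enough counts to be tested. The exception was Psmb11, the catalytic subunit of the thymus, with 1 read in all 12 libraries. One gene that the name rule includes, Psmc3ip, is a cofactor of meiotic recombination and no proteasome subunit, so it is kept in the counts and described apart. The study measured RNA by sequencing in RAW 264.7 cells, a macrophage-like line of BALB/c mouse origin. Stable lines were made by nucleofection and puromycin selection, 1 with a short hairpin RNA against the phosphatase PHLPP1 (sh-PHLPP1) and 1 with a hairpin against luciferase (sh-Luc). The 4 groups, of 3 libraries each, were sh-PHLPP1 given OxLDL (oxidised lipoprotein of the low-density class, 100 µg/ml over 24 h), sh-PHLPP1 untreated, sh-Luc with the same OxLDL treatment, and sh-Luc untreated. Replicates 1, 2 and 3 of each group were cultures at passages 9, 10 and 11 of that 1 line, so p-values measure the spread between cultures and not between independently made lines.

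The 20S core of the proteasome is a barrel of outer alpha rings (Psma genes) and inner beta rings (Psmb genes), and 3 beta subunits carry the cutting sites. In most cells these are Psmb5 with a chymotrypsin-like, Psmb6 with a caspase-like and Psmb7 with a trypsin-like activity. Interferon gamma is known to bring in the immune subunits Psmb8, Psmb9 and Psmb10 in their place, which favours peptides that bind MHC class I, and cells of the immune system hold some immunoproteasome without it. The 19S particle, made of ATPases (Psmc) and non-ATPases (Psmd), recognises and unfolds ubiquitinated proteins. Psme genes encode activators that open the core, Psmf1 an inhibitor, and Psmg1 to Psmg4 with Psmd5, Psmd9 and Psmd10 assembly chaperones. The transcription factor NRF1 (gene Nfe2l1) is known to raise the genes of the standard proteasome when proteasome activity falls short, and its relative NRF2 (gene Nfe2l2) responds to oxidants and electrophiles.

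The promoters of the catalytic subunits with an entry in the RefSeq promoter table (GRCm38.p6) are shown with that of Psmd8, since Psmb6 and Psmd8 were the members that rose in both lines, Psmb9 and Psmb10 fell in both, and Psmb8 fell in sh-Luc. Each runs from 250 bases before to 50 bases after the RefSeq start site, 5′ to 3′ on the gene's strand. Capitals mark matches on either strand to an antioxidant-response type motif, TGANNNNGC. A match is a description of letters, not of binding.
Psmb8 promoter, chr17:34197945-34198244, + strand: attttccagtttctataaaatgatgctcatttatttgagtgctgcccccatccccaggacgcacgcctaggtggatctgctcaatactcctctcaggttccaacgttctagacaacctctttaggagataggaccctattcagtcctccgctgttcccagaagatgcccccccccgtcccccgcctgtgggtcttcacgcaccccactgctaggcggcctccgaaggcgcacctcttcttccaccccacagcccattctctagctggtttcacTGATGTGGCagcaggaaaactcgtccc
Psmb9 promoter, chr17:34187281-34187580, - strand: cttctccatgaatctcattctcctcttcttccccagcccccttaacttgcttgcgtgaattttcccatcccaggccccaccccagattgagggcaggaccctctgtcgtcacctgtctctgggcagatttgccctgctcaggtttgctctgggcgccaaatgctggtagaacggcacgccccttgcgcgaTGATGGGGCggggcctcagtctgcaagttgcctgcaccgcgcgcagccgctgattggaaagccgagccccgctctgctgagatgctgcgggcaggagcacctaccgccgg
Psmb10 promoter, chr8:105938343-105938642, - strand: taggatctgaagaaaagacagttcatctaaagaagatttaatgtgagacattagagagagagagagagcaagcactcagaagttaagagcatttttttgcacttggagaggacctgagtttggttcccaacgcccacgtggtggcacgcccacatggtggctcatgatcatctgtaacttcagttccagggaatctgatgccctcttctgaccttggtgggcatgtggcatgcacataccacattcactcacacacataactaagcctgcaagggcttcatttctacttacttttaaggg
Psmb5 promoter, chr14:54617946-54618245, - strand: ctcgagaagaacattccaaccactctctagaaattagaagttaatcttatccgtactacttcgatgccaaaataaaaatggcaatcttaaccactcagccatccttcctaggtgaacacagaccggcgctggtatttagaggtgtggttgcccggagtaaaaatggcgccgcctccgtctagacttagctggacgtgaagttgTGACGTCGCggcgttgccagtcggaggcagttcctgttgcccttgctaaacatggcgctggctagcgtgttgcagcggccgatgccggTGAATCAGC
Psmb6 promoter, chr11:70525107-70525406, + strand: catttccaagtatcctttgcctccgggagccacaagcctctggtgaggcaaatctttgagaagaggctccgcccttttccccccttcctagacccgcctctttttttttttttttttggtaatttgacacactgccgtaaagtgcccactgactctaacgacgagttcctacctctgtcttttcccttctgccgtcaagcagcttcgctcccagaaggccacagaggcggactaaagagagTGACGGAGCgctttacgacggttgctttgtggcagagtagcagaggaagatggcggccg
Psmd8 promoter, chr7:29180624-29180923, - strand: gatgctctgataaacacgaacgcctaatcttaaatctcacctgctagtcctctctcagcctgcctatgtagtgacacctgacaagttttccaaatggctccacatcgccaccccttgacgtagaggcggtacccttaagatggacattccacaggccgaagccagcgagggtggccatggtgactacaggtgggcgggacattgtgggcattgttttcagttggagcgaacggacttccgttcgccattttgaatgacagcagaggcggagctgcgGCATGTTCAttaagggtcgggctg
The Psmb8 window holds an antioxidant-response type motif 23 bases after the start. The Psmb6 window holds an antioxidant-response type motif 9 bases before it, the Psmb9 window 1 at 60 bases before it, and the Psmb5 window 1 at 47 bases before and 1 at 41 bases after. In Psmd8 the match, printed as GCATGTTCA, reads TGANNNNGC on the other strand and lies 26 bases after the start. No 2 matches overlap in these windows, and the letters of this motif, or of an interferon-response type motif (GAAA, any 2 bases, GAAA), are not in the Psmb10 window. The RefSeq starts of Psmb8 and Psmb9 lie 474 and 434 bases downstream of the 5′ end of the gene in GENCODE M21. Both windows therefore lie inside the annotated gene and do not reach the bases before that end.

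Across all 32851 promoters of the table the antioxidant-response type motif was in 41.3% and the interferon-response type motif in 3.44%. Of the 50 members 42 had an entry. The antioxidant-response type motif was in 23 of these 42 and the interferon-response type motif in 5 (Psmb3, Psmd4, Psmd9, Psme1 and Psmg4). Among members that OxLDL raised in the sh-PHLPP1 line, 12 of the 25 with an entry held the antioxidant-response type motif, and among those not called in that comparison 7 of 12 did. No difference between these shares was tested.

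Totals were 16020186 to 27422114 reads per library, and the members took 0.714 to 0.796% of them. Levels are read counts scaled to library size (CPM) after TMM scaling, which sets the bulk of genes level between libraries. This scaling matters here, because the TMM factors were 0.778 to 0.874 in the OxLDL-treated sh-PHLPP1 libraries, against 1.12 to 1.14 in the untreated ones of that line. On library size alone the median log2 fold change of all genes with OxLDL in the sh-PHLPP1 line was -0.46, against -0.03 with TMM. Phlpp1, the gene the hairpin targets, had 17.3, 14.6 and 14.0 CPM in untreated libraries with the label sh-PHLPP1 and 12.4, 14.4 and 13.3 CPM in untreated sh-Luc libraries (log2 0.19 ± 0.13, edgeR adjusted p = 0.279). No fall of Phlpp1 was seen there, so sh-PHLPP1 stands throughout for the libraries with that label. After OxLDL Phlpp1 was at 8.65, 8.35 and 7.40 CPM in sh-PHLPP1 libraries and 11.4, 13.5 and 11.4 CPM in sh-Luc libraries (-0.57 ± 0.14, adjusted p = 0.00385). Replicate 1 of untreated sh-PHLPP1 stood apart (correlations of log2 CPM of 0.971 and 0.970 with the others of its group, which correlated at 0.998), as did replicate 2 of untreated sh-Luc (0.987 with each, against 0.998) and, less so, replicate 3 of OxLDL-treated sh-PHLPP1 (0.988 and 0.991, against 0.997). All 8 macrophage markers were detected, with summed levels of 12300 to 13560, 9817 to 11180, 16090 to 17560 and 14000 to 15550 CPM in OxLDL-treated sh-PHLPP1, untreated sh-PHLPP1, OxLDL-treated sh-Luc and untreated sh-Luc libraries. Most of this sum was Lyz2, and singly 6 of the 8 were higher and 2 lower in sh-PHLPP1 than in sh-Luc after OxLDL (median log2 0.51). Of 5 T and B lymphocyte markers 4 were at 0 throughout, the 7 fibroblast and epithelial markers summed to at most 4.29 CPM, and the 7 osteoclast markers summed to 678 to 804, 58.2 to 112, 358 to 503 and 180 to 478 CPM in the same order of groups. The high sum in OxLDL-treated sh-PHLPP1 was largely Mmp9 (630 to 736 CPM, against 75.7 to 155 CPM in OxLDL-treated sh-Luc), while of the 6 osteoclast markers tested 1 was higher and 4 were lower in sh-PHLPP1 than in sh-Luc after OxLDL (median log2 -1.82). Their part in the results was not tested.

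The first question was how the immune and the constitutive catalytic subunits stood to each other in the 4 groups. With OxLDL Psmb9 and Psmb10 fell in both lines, Psmb8 fell in sh-Luc, and Psmb6 rose in both. The immune share of the counts was lower with OxLDL in both lines and at all 3 cutting sites. In the sh-PHLPP1 line Psmb5, Psmb6 and Psmb7 all rose on the TMM scale, whereas on library size alone Psmb5 was no longer called (log2 fold change 0.09) and Psmb6 and Psmb7 still rose. The fall of Psmb9 and Psmb10 in sh-PHLPP1, and of all 3 immune subunits in sh-Luc, kept its direction and call on library size alone. Without replicate 3 of untreated or replicate 1 or 2 of OxLDL-treated sh-PHLPP1, 1 immune subunit was called lower in that line. In sh-Luc 1 was called lower without replicate 1 or 3 of untreated sh-Luc or any single OxLDL-treated sh-Luc library. In bulk RNA, fewer cells with a transcript and less of it per cell cannot be told apart.

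**Figure D1:**
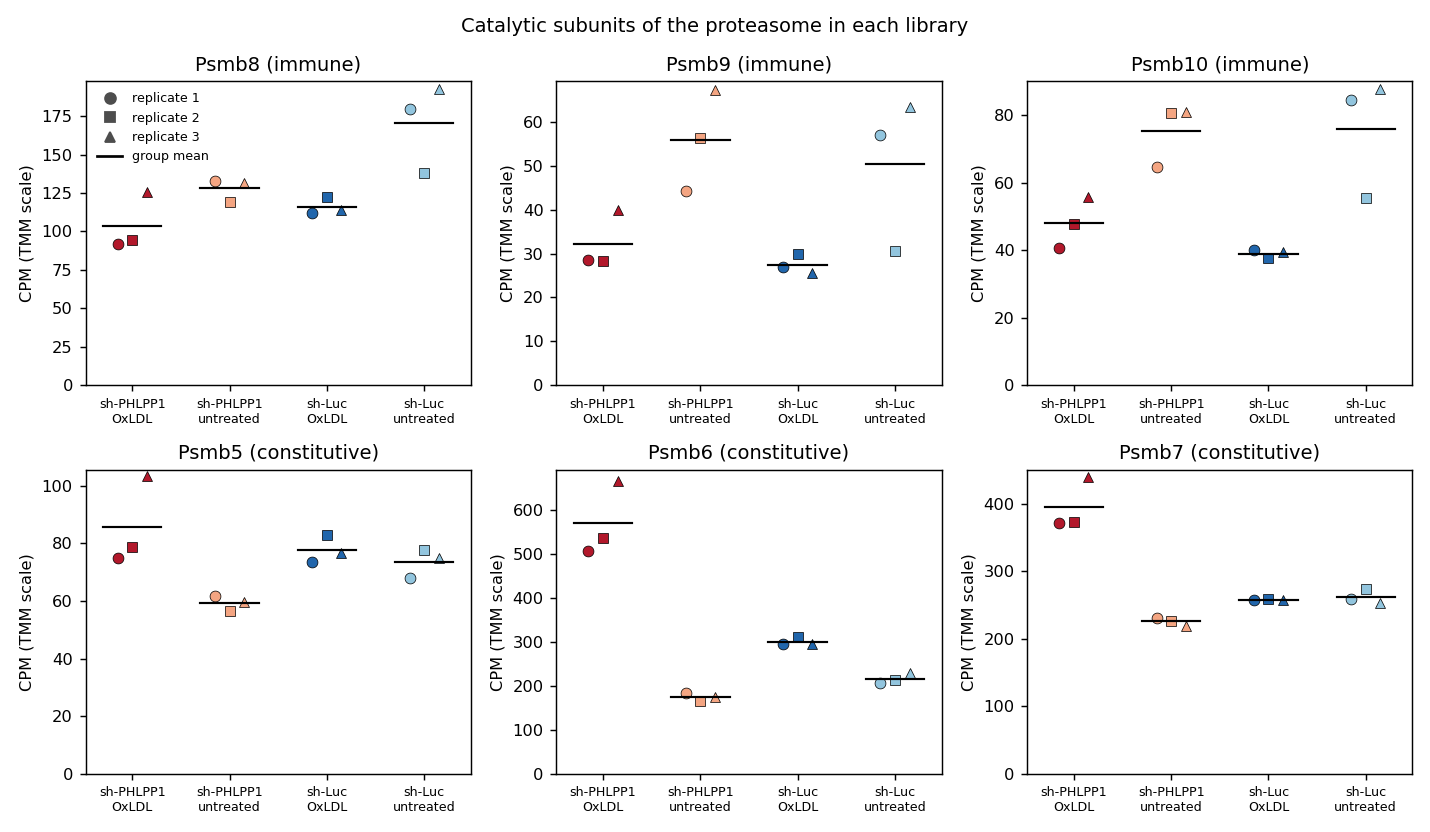
Levels of the 6 catalytic subunits in each library, in CPM on the TMM scale, by group; symbols are replicates and lines group means of 3 libraries. The OxLDL-treated sh-PHLPP1 libraries lie above all others for Psmb6 (505 to 666 CPM) and Psmb7 (371 to 439 CPM), and the OxLDL-treated libraries of each line lie below its untreated ones for Psmb10.

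Psmb8, the immune counterpart of Psmb5, lies on chr17:34197721-34201454 (+ strand) in the MHC region. It was at 91.5, 94.3 and 125.5 CPM in OxLDL-treated and 133, 119 and 131 CPM in untreated sh-PHLPP1 libraries, where replicate 3 of the treated group reached into the untreated range. In sh-Luc it was at 112, 122 and 114 CPM with OxLDL and 180, 138 and 193 CPM untreated, without overlap. The log2 fold change was -0.30 ± 0.15 (SE; edgeR adjusted p = 0.0962) in sh-PHLPP1, which missed the threshold, and -0.55 ± 0.15 (adjusted p = 0.0318) in sh-Luc. The sh-PHLPP1 value was -0.74 on library size alone and passed it.

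Psmb9, the immune counterpart of Psmb6, lies at chr17:34181987-34187764 (- strand), with Tap1 between it and Psmb8. Its exons overlap those of Tap1 on the opposite strand over 212 bases, and since the strand setting of the counting is not given, reads there cannot be told apart. It was at 28.5, 28.3 and 40.0 CPM in OxLDL-treated and 44.4, 56.3 and 67.3 CPM in untreated sh-PHLPP1 libraries, without overlap. The sh-Luc libraries had 26.9, 29.9 and 25.7 CPM with OxLDL and 57.0, 30.7 and 63.6 CPM untreated. Here replicate 2 of the untreated group, the library that stood apart, was near the treated ones. The log2 fold change with OxLDL was -0.80 ± 0.24 (edgeR adjusted p = 0.015) in sh-PHLPP1 and -0.87 ± 0.24 (adjusted p = 0.0423) in sh-Luc, and in sh-Luc it was -1.13 without that replicate.

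Psmb10, the immune counterpart of Psmb7, lies at chr8:105935735-105938444 (- strand). It was at 40.5, 47.7 and 55.7 CPM in OxLDL-treated and 64.6, 80.7 and 81.0 CPM in untreated sh-PHLPP1 libraries, and at 39.9, 37.6 and 39.4 CPM in OxLDL-treated and 84.5, 55.5 and 87.6 CPM in untreated sh-Luc libraries. The groups did not overlap in either line. It fell by 0.65 ± 0.17 on the log2 scale in sh-PHLPP1 (edgeR adjusted p = 0.00679) and by 0.96 ± 0.17 in sh-Luc (adjusted p = 0.00456).

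Among the constitutive subunits Psmb6 responded most. It lies at chr11:70525367-70527858 (+ strand) and had 505, 536 and 666 CPM in OxLDL-treated against 183, 164 and 174 CPM in untreated sh-PHLPP1 libraries, a 3.27-fold rise (log2 1.71 ± 0.12, edgeR adjusted p = 3.11e-07). In sh-Luc it had 294, 311 and 295 CPM with OxLDL and 205, 212 and 229 CPM untreated, a 1.39-fold rise (log2 0.48 ± 0.11, adjusted p = 0.0213). The groups were separate in both lines. Psmb7, at chr2:38588036-38644087 (- strand), had 371, 372 and 439 CPM in OxLDL-treated and 231, 227 and 219 CPM in untreated sh-PHLPP1 libraries (log2 0.80 ± 0.10, adjusted p = 2.92e-05). In sh-Luc the Psmb7 levels of 258, 259 and 257 CPM with OxLDL overlapped the untreated ones of 259, 273 and 253 CPM (log2 -0.02, 95% interval -0.23 to 0.19). Exons of Nek6 overlap Psmb7 on the other strand over 405 bases. Psmb5, at chr14:54614119-54618022 (- strand), had 74.8, 78.6 and 103 CPM in OxLDL-treated and 61.6, 56.4 and 59.5 CPM in untreated sh-PHLPP1 libraries (log2 0.53 ± 0.12, adjusted p = 0.00335). In sh-Luc it had 73.4, 82.98 and 76.7 CPM with OxLDL and 67.9, 77.5 and 74.9 CPM untreated (log2 0.08 ± 0.12, adjusted p = 0.72). In the OxLDL-treated sh-PHLPP1 group replicate 3 was the highest for each of the 6 catalytic subunits.

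A ratio of immune to constitutive counts within a library does not depend on how libraries are scaled. At the Psmb9/Psmb6 site the log2 ratio of read counts was -4.15, -4.24 and -4.06 in OxLDL-treated sh-PHLPP1 libraries and -2.04, -1.54 and -1.37 in untreated ones. It was -3.45, -3.38 and -3.52 in OxLDL-treated sh-Luc libraries and -1.85, -2.79 and -1.85 in untreated ones. At the Psmb8/Psmb5 site it averaged 0.28 ± 0.015 with OxLDL and 1.11 ± 0.03 untreated in sh-PHLPP1, and 0.58 ± 0.03 with OxLDL and 1.202 ± 0.318 untreated in sh-Luc (SD, n = 3 each). At the Psmb10/Psmb7 site the means were -3.05 ± 0.13 with OxLDL and -1.59 ± 0.22 untreated in sh-PHLPP1, and -2.73 ± 0.05 with OxLDL and -1.82 ± 0.42 untreated in sh-Luc. For each pair the OxLDL-treated and untreated libraries did not overlap in either line, and the sh-PHLPP1 libraries after OxLDL lay below all sh-Luc libraries after OxLDL. Untreated, the lines overlapped for all 3 pairs. No p is given for these ratios, and 3 against 3 libraries could not go below 0.1 in an exact permutation test. The spread in untreated sh-Luc came from replicate 2, which had the lowest ratio of its group at each site.

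**Figure D2:**
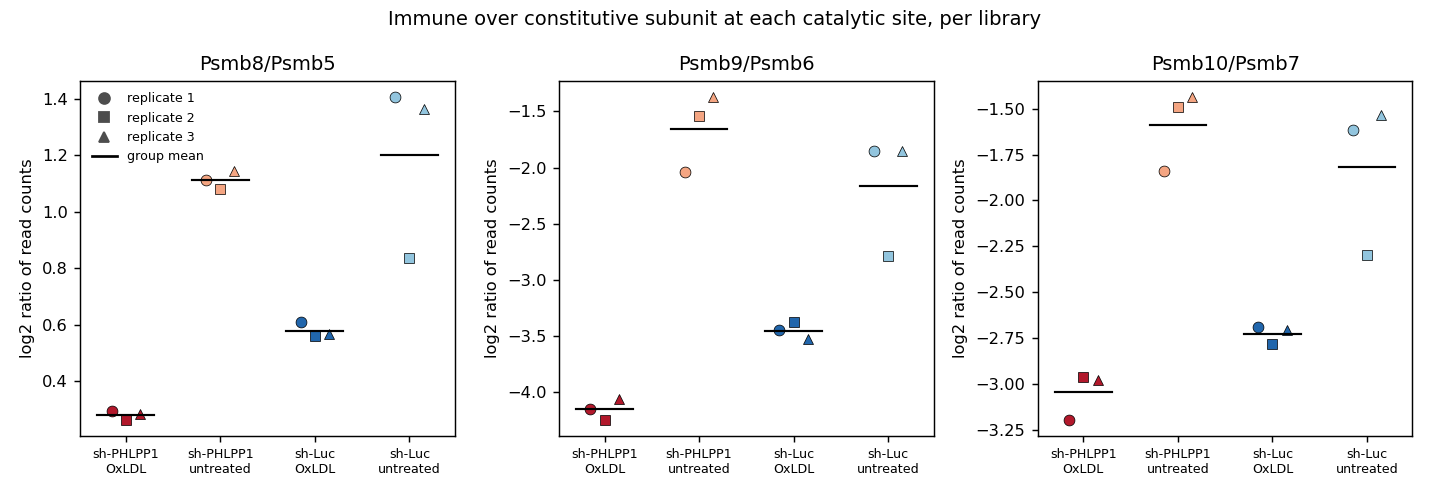
Log2 ratio of the read counts of the immune to the constitutive subunit at each cutting site, per library and group; symbols are replicates and lines group means. At each site the OxLDL-treated libraries of a line lie below its untreated ones, with sh-PHLPP1 after OxLDL the lowest, at -4.24 to -4.06 for Psmb9/Psmb6.

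Per length (CPM over the exon-union length in kb), the immune subunit made up 24.4 ± 0.19% of Psmb8 plus Psmb5 in OxLDL-treated and 36.5 ± 0.50% in untreated sh-PHLPP1, and 28.4 ± 0.39% in OxLDL-treated and 38.1 ± 5.1% in untreated sh-Luc (SD, n = 3 each). The share of Psmb9 in Psmb9 plus Psmb6 was 2.81 ± 0.18% with OxLDL and 14.2 ± 2.8% untreated in sh-PHLPP1, and 4.47 ± 0.21% with OxLDL and 10.6 ± 3.2% untreated in sh-Luc. For Psmb10 in Psmb10 plus Psmb7 it was 19.6 ± 1.4% with OxLDL and 40.1 ± 3.6% untreated in sh-PHLPP1, and 23.3 ± 0.60% with OxLDL and 36.5 ± 6.5% untreated in sh-Luc. These shares rest on annotated lengths, and with the length of the principal transcript (1628 in place of 3381 bases for Psmb8) the share of Psmb8 became 40.1% with OxLDL and 54.4% untreated in sh-PHLPP1. That of Psmb10 became 9.69% with OxLDL and 22.8% untreated in the same line, so the level of a share depends on the length used. In each group Psmb9 had the lowest level per length of the 6, at 8.82 CPM per kb in OxLDL-treated sh-PHLPP1, 15.3 in untreated sh-PHLPP1, 7.51 in OxLDL-treated sh-Luc and 13.8 in untreated sh-Luc. Psmb6 was at 304, 92.9, 160 and 115 CPM per kb in the same groups, the highest of the 6 in each. Psmb4, a core subunit without a cutting site, was highest of all members per exon-union length in each group, at 326, 230, 229 and 244 CPM per kb. With the principal transcript length Psmb6 was above Psmb4 in OxLDL-treated sh-PHLPP1, at 713 against 538 CPM per kb. Psma8, the alpha subunit known from the testis, was detected at 7.57 to 12.8 CPM per kb of exon union, against 70.8 to 89.4 CPM per kb for its relative Psma7. With the principal transcript length the gap was wider, at 11.2 to 18.9 CPM per kb for Psma8 and 238 to 300 CPM per kb for Psma7.

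In the sh-PHLPP1 line most members were called with OxLDL on the TMM scale, but not on library size alone. Of 49 members tested 30 were higher and 5 lower with OxLDL at an edgeR adjusted p under 0.05, beside 26.2% of all 13121 genes higher and 28.4% lower (54.6% in either direction). The median log2 fold change of the members was 0.38, against -0.03 for all genes tested. On library size alone 10 were higher and 12 lower, beside 12% of all genes higher and 48.6% lower. On that scaling 15 of the 49 changed sign. Of these 15, 7 were called with TMM (Psma1, Psma2, Psma3, Psma7, Psmb2, Psme3 and Psmf1). With TMM 39 of 49 members lay above the median of all genes, a position that rescaling whole libraries leaves nearly as it is.

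**Figure D3:**
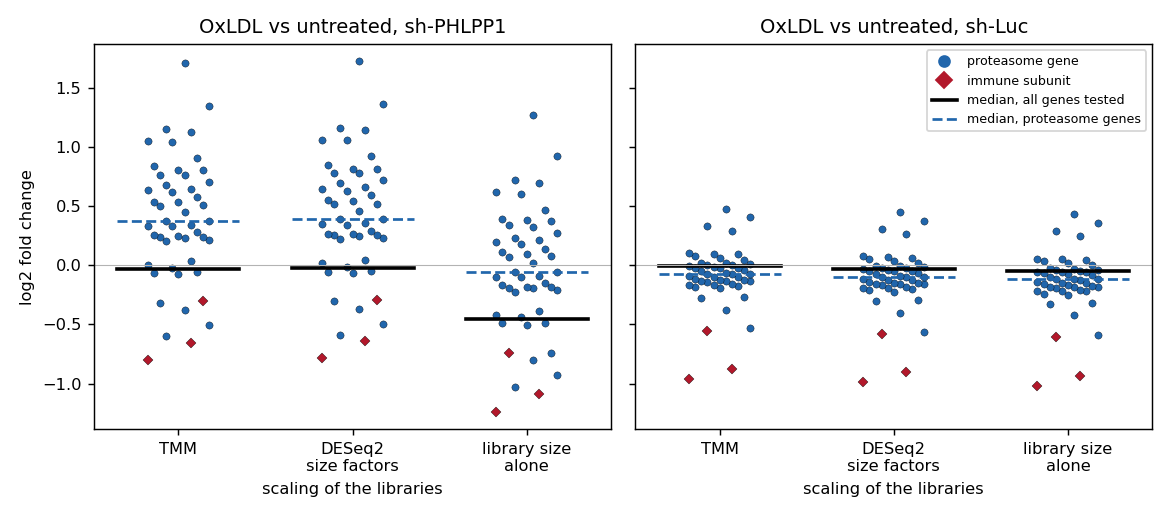
Log2 fold changes of the 49 tested proteasome genes with OxLDL in each line under 3 scalings of the libraries; solid lines are medians of all genes tested and dashed lines medians of the proteasome genes. In sh-PHLPP1 the median of the proteasome genes is 0.38 with TMM and -0.06 on library size alone, where that of all genes is -0.46.

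Within the constitutive 20S core 14 of 15 subunits rose on the TMM scale (median 0.53, range 0.21 to 1.71), of which 4 stayed called as higher on library size alone while 6 of the 15 turned negative. Besides Psmb6 and Psmb7, the largest rises were of Psma6 (log2 0.80 ± 0.11, edgeR adjusted p = 9.89e-05), Psmb3 (0.77 ± 0.14) and Psma8 (0.71 ± 0.14). Psma5 was the subunit not called (0.21 ± 0.09, adjusted p = 0.0623). Of 6 ATPases of the 19S particle 5 rose, with Psmc2 (log2 1.13 ± 0.11) and Psmc5 (1.04 ± 0.12) 2.19-fold and 2.06-fold higher on the TMM scale and also called higher on library size alone, and Psmc3 (0.22 ± 0.10, adjusted p = 0.0957) was not called.

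The non-ATPases of the 19S particle were mixed, with 4 of 11 higher, 1 lower and 6 not called on the TMM scale, and 3 higher and 4 lower on library size alone. Psmd8, a lid subunit (Rpn12), had 684, 645 and 632 CPM in OxLDL-treated and 238, 265 and 266 CPM in untreated sh-PHLPP1 libraries, a 2.55-fold rise (log2 1.35 ± 0.11, edgeR adjusted p = 9.79e-07). Psmd11 (Rpn6), which helps hold the lid to the core, had 225, 217 and 218 CPM in OxLDL-treated and 109, 96.2 and 92.1 CPM in untreated libraries of that line (1.15 ± 0.10, adjusted p = 2.51e-06). Psmd14, the deubiquitinase of the lid, rose by 0.77 ± 0.10, and Psmd12 by 0.51 ± 0.10, the second not called on library size alone (0.08). The groups did not overlap for Psmd8 or Psmd11. Psmd7, the partner of Psmd14, fell by 0.38 ± 0.11 (adjusted p = 0.00967). The scaffold subunits Psmd1 (-0.06 ± 0.12) and Psmd2 (-0.07 ± 0.17) were not called.

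Assembly factors moved both ways in this line. Psmd10 (gankyrin), a chaperone of the ATPase ring, had 123, 117 and 120 CPM in OxLDL-treated and 57.6, 61.8 and 54.7 CPM in untreated sh-PHLPP1 libraries (log2 1.05 ± 0.09, edgeR adjusted p = 2.15e-06). Psmg4, a chaperone of the alpha ring, had 42.6, 39.7 and 67.8 CPM with OxLDL and 22.95, 28.8 and 32.1 CPM untreated (0.84 ± 0.20, adjusted p = 0.00357), and Psmg2 rose by 0.62 ± 0.11; on library size alone these 2 chaperones were not called (0.39 and 0.18). Psmd9 fell by 0.32 ± 0.11 (adjusted p = 0.0241), and Psmg1, Psmg3 and Psmd5 were not called.

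The activators split as well. Psme4, which encodes the activator PA200, had 70.4, 56.6 and 51.2 CPM in OxLDL-treated and 78.6, 94.3 and 80.3 CPM in untreated sh-PHLPP1 libraries and fell by 0.51 ± 0.12 on the log2 scale (edgeR adjusted p = 0.00404). Psme2 had 52.3, 57.7 and 82.4 CPM with OxLDL and 25.8, 37.6 and 38.8 CPM untreated (0.91 ± 0.21, adjusted p = 0.00322). Its partner in the interferon-inducible activator, Psme1, had 92.7, 104 and 134 CPM with OxLDL and 113, 115 and 119 CPM untreated, with overlap and no call (-0.07 ± 0.17). Counts of Psme2 are uncertain, because the row Psme2b is 99.4% identical to it over 794 aligned bases and reads could be split between them. Psme2b rose as well (0.65 ± 0.18, adjusted p = 0.0101), but neither Psme2 nor Psme2b was called on library size alone, where no activator was higher. Psme3, the nuclear activator, and the inhibitor Psmf1 rose by 0.24 ± 0.09 and 0.38 ± 0.09 on the TMM scale and had negative values on library size alone.

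In the sh-Luc line few members responded to OxLDL. Of 49 tested, 2 were higher (Psmb6 and Psmd8) and 3 lower (Psmb8, Psmb9 and Psmb10), beside 6.38% of all genes higher and 3.09% lower (9.47% in either direction). The members' median log2 fold change was -0.07, against 0.00 for all genes. Psmd8 had 292, 297 and 289 CPM with OxLDL and 228, 194 and 241 CPM untreated (0.40 ± 0.10, edgeR adjusted p = 0.0303), a rise not called on library size alone (0.35). The interferon-inducible activator gene Psme1 had 81.8, 78.2 and 78.3 CPM with OxLDL and 134, 82.2 and 129 CPM untreated, and its value of -0.53 ± 0.17 was not called (adjusted p = 0.0757). Psme2 was at 28.4, 26.1 and 27.2 CPM with OxLDL and 34.1, 22.8 and 36.1 CPM untreated (-0.18 ± 0.21). In both, replicate 2 of the untreated group was low beside replicates 1 and 3. At an unadjusted p under 0.05 there were 4 higher and 6 lower members. DESeq2 called 3 and 6, beside 8.15% of all genes higher and 6.7% lower. Calls in this line were close to the threshold. Without replicate 1 or 3 of untreated sh-Luc, or any 1 of the 3 OxLDL-treated sh-Luc libraries, 1 member was called lower and 0 to 2 higher. Of all genes 1.12 to 1.6% were then lower and 3.11 to 3.94% higher. Replicate 1 of untreated sh-PHLPP1 shares the estimate of the spread. Without it 6 members were called lower and 3 higher, beside 9.86% of all genes lower and 13.2% higher. Psmb10 was called lower in each of these fits.

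**Figure D4:**
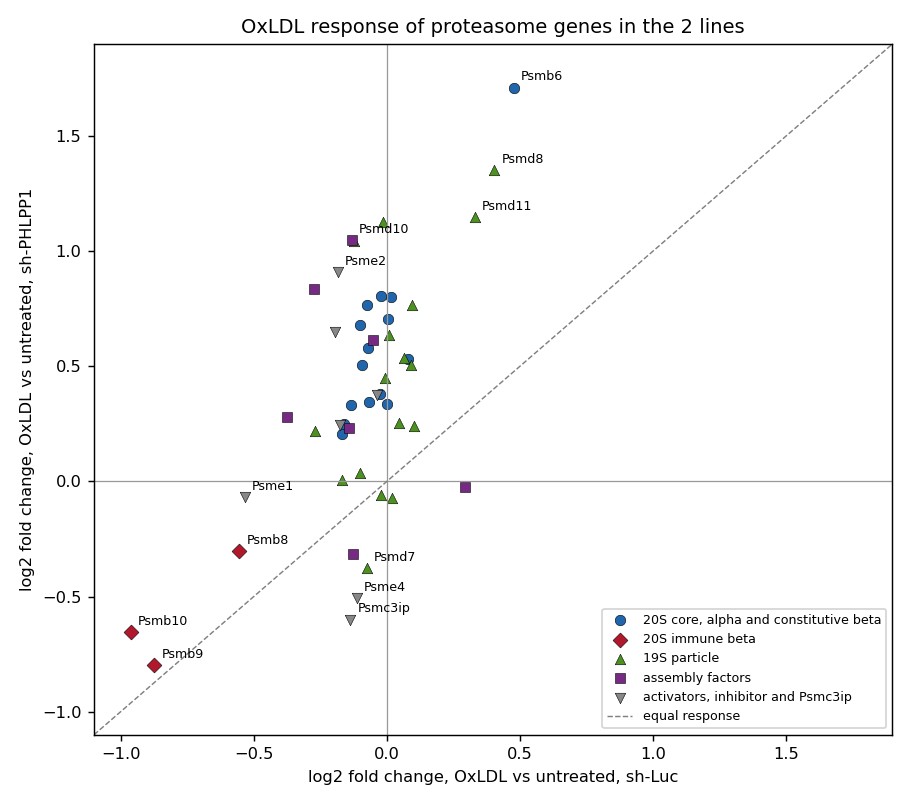
Log2 fold change with OxLDL in sh-PHLPP1 (vertical axis) and in sh-Luc (horizontal axis) for the 49 tested members, with markers by role and the line of equal response dashed, all on the TMM scale. Most members lie above the dashed line, which 10 of the 49 cross on library size alone, and near 0 on the horizontal axis, and the 3 immune subunits lie in the lower left, from -0.55 to -0.96 in sh-Luc.

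Whether the response to OxLDL differed between the lines was tested by the interaction, the response in sh-PHLPP1 minus that in sh-Luc. It was positive for 29 of 49 members and negative for 0 at an edgeR adjusted p under 0.05, beside 11.1% of all genes positive and 13.6% negative (24.6% in either direction). At an unadjusted p under 0.05 there were 33 positive and 1 negative. DESeq2 called 32 and 0, beside 15.2% and 14.7% of all genes. With a block for replicate number, which marks the passage, edgeR called 23 and 0, beside 10.5% and 12.1% of all genes. The members' median was 0.46, against -0.05 for all genes. On library size alone 7 were positive and 4 negative, beside 4.34% of all genes positive and 32.1% negative. On that scaling 10 of the 49 changed sign, Psma5 alone among the 29. With TMM 43 of 49 members lay above the median of all genes. All 6 ATPases, 11 of 15 constitutive core subunits and 4 of 11 non-ATPases were among the 29 on the TMM scale, against 2, 2 and 2 positive and 1 non-ATPase negative on library size alone. Psmb6 had the largest difference (1.23 ± 0.16, adjusted p = 0.000337), followed by Psmd10 (1.18 ± 0.13, adjusted p = 9.1e-05) and Psmc5 (1.17 ± 0.16, adjusted p = 0.000481). Psmc5 had 284, 308 and 386 CPM in OxLDL-treated and 155, 155 and 165 CPM in untreated sh-PHLPP1 libraries, and 162, 165 and 157 CPM in OxLDL-treated and 170, 185 and 172 CPM in untreated sh-Luc libraries. Psmd10 in sh-Luc had 46.5, 51.0 and 48.7 CPM with OxLDL and 55.8, 50.7 and 53.7 CPM untreated. The immune subunits showed no difference in response that passed the test, with 0.25 (95% interval -0.19 to 0.70) for Psmb8, 0.08 (-0.67 to 0.82) for Psmb9 and 0.31 (-0.22 to 0.84) for Psmb10. Their signs depended on the scaling, with -0.13, -0.30 and -0.07 on library size alone, none of them called by edgeR. Without 1 library the count of positive members was 14 (replicate 1 or 3 of untreated sh-Luc), 16 (replicate 1 or 2 of OxLDL-treated sh-Luc), 13 (replicate 3 of OxLDL-treated sh-Luc) or 18 (replicate 3 of OxLDL-treated sh-PHLPP1), and it was 20 to 31 without any other. Of all genes 6.6 to 8.11% were positive without 1 of the libraries named, and 8.93 to 14.2% without 1 of the others.

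Before OxLDL, the libraries labelled sh-PHLPP1 had lower levels of many 19S genes than sh-Luc libraries. In all 15 of 49 members were lower and 0 higher (0 also at an unadjusted p under 0.05, in edgeR and DESeq2 alike), beside 12.2% of all genes lower and 14.9% higher (27% in either direction). On library size alone 7 were lower and 0 higher, beside 7.59% of all genes lower and 20% higher. At an unadjusted p under 0.05 on that scaling 5 were higher. The median of the members was -0.15, against 0.03 for all genes. Of the 15, 8 were among the 11 non-ATPases of the 19S particle on the TMM scale, of which 4 were called on library size alone. Psmd3 (Rpn3) had 192, 130 and 142 CPM in untreated sh-PHLPP1 and 233, 263 and 242 CPM in untreated sh-Luc libraries (log2 -0.67 ± 0.14, edgeR adjusted p = 0.00616). Psmd13 (Rpn9) had 165.5, 101 and 106 CPM in untreated sh-PHLPP1 and 185, 197 and 198 CPM in untreated sh-Luc libraries (-0.64 ± 0.16, adjusted p = 0.0144). Neither overlapped between the lines, and in both the sh-PHLPP1 library nearest to sh-Luc was replicate 1, which stood apart. The others were Psmd1 (-0.62), Psmd2 (-0.55), Psmd7 (-0.53), Psmd6 (-0.43), Psmd12 (-0.37) and Psmd11 (-0.35). Outside this group the lower members were Psma5, Psma3, Psmc3, Psmd9, Psmg3, Psme3 and Psmc3ip. With replicate 2 or 3 of untreated sh-PHLPP1 left out 6 members were lower, beside 4.87 and 4.99% of all genes. With the fit restricted to the 2 untreated groups 0 were called (20 lower at an unadjusted p under 0.05), beside 2.44% of all genes lower.

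**Figure D5:**
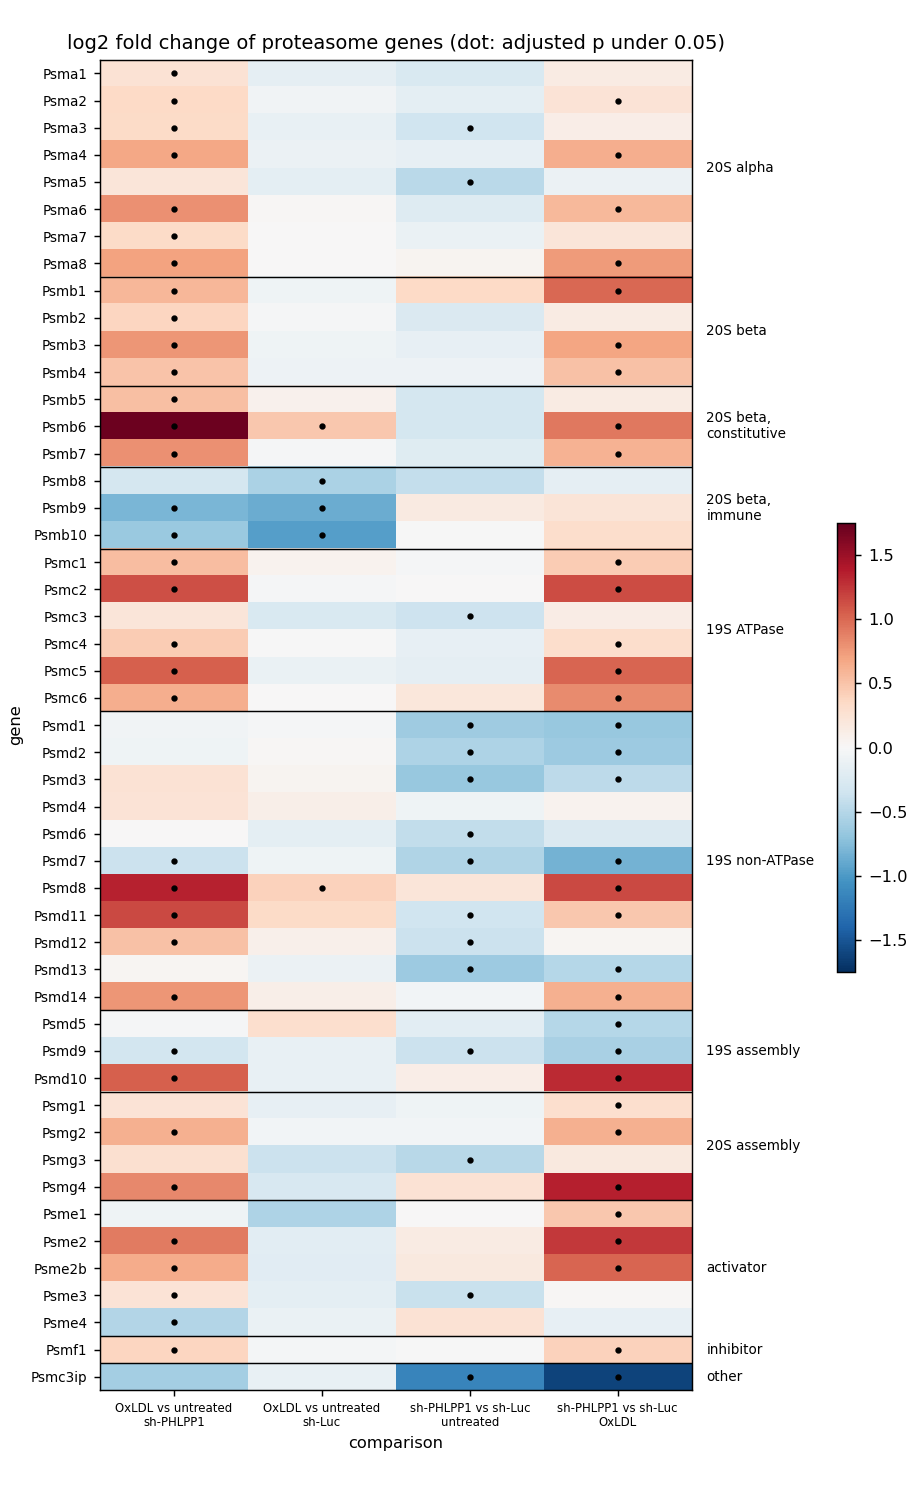
Log2 fold changes on the TMM scale of the 49 tested members (rows, grouped by role) in 4 comparisons (columns), with red for higher and blue for lower in the group named first; dots mark an adjusted p under 0.05. The OxLDL column of sh-PHLPP1 is mostly red, with 30 dots for higher members, while that of sh-Luc holds 5 dots. On library size alone the first holds 10 higher and 12 lower, beside 12% and 48.6% of all genes.

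After OxLDL, sh-PHLPP1 libraries had 25 members higher and 8 lower than sh-Luc libraries, beside 27.6% of all genes in each direction (55.2% in all). The median of the members was 0.30, against 0.01 for all genes. On library size alone 15 were higher and 12 lower, beside 16.6% of all genes higher and 38.9% lower. Psmg4 was at 42.6, 39.7 and 67.8 CPM in sh-PHLPP1 and 20.1, 19.6 and 18.8 CPM in sh-Luc libraries (log2 1.36 ± 0.20, edgeR adjusted p = 0.000181). Psmd10, with the treated levels given above, was 2.46-fold higher (1.30 ± 0.09, adjusted p = 8.91e-07), and Psme2 2.35-fold higher (1.23 ± 0.21, adjusted p = 0.000509). Psme1 was also higher (0.47 ± 0.17, adjusted p = 0.0358). Lower members were again largely 19S non-ATPases, 5 of 11 in number on the TMM scale and 6 of 11 on library size alone. Psmd7 had 100, 95.5 and 83.8 CPM in OxLDL-treated sh-PHLPP1 and 174.5, 158 and 164.5 CPM in OxLDL-treated sh-Luc libraries (-0.83 ± 0.11, adjusted p = 6.66e-05). Psmd1 had 142, 140.5 and 145 CPM in sh-PHLPP1 and 230, 219 and 224 CPM in sh-Luc libraries after OxLDL (-0.66 ± 0.12, adjusted p = 0.000834). The lines did not overlap for either gene. None of the 3 immune subunits was called between the lines after OxLDL with edgeR (0 also at an unadjusted p under 0.05 and with DESeq2), at -0.16 for Psmb8, 0.23 for Psmb9 and 0.30 for Psmb10. Psmb8 was called lower on library size alone (-0.43, edgeR adjusted p = 0.0225), where Psmb9 was at -0.05. Psmb10 was called higher without both untreated libraries that stood apart, replicate 1 of sh-PHLPP1 and replicate 2 of sh-Luc (0.28, edgeR adjusted p = 0.0241). Comparisons that use the same group share its libraries, so their values are not independent of each other.

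Psmc3ip, the recombination cofactor that the name rule includes, had the most negative fold changes of all members between the lines. It had 5.34, 6.75 and 7.92 CPM in OxLDL-treated sh-PHLPP1, against 21.7, 19.1 and 20.5 CPM in OxLDL-treated sh-Luc libraries (log2 -1.61 ± 0.29, edgeR adjusted p = 0.000569). Untreated it had 16.3, 6.49 and 7.73 CPM in sh-PHLPP1 and 21.0, 23.6 and 22.7 CPM in sh-Luc libraries (-1.15 ± 0.27, adjusted p = 0.0107). The untreated sh-PHLPP1 library near the sh-Luc level was replicate 1. The exons of Mlx, on the opposite strand, overlap it over 385 bases, and the 2 genes' reads cannot be told apart there.

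Genes that work with the proteasome were described from 6 lists with 87 tested genes. Beside their counts stand 26.2% of all genes higher and 28.4% lower with OxLDL in sh-PHLPP1 (12 and 48.6% on library size alone). In sh-Luc 6.38% of all genes were higher and 3.09% lower (5.2 and 3.44% on library size alone). With OxLDL in sh-PHLPP1, 5 of 12 partners of the complex outside the name rule were higher and 1 lower, and in sh-Luc 2 were higher and 0 lower. In sh-PHLPP1 4 were higher and 5 lower on library size alone. Zfand5, whose protein binds the proteasome and raises its activity, was 7.20-fold higher with OxLDL in sh-PHLPP1 (log2 2.85 ± 0.12, edgeR adjusted p = 4.02e-09) and 1.43-fold higher in sh-Luc (0.52 ± 0.11, adjusted p = 0.0107). Pomp, the maturation factor of the 20S core, was higher in sh-PHLPP1 (0.58 ± 0.14, edgeR adjusted p = 0.00464), though not called on library size alone (0.14), and at -0.07 ± 0.14 in sh-Luc. Akirin2, which in human cells brings proteasomes into the nucleus, was higher in sh-PHLPP1 (0.79 ± 0.13, adjusted p = 0.000313) and at 0.09 ± 0.13 in sh-Luc. Nfe2l1, the gene of NRF1, was 1.35-fold higher with OxLDL in sh-PHLPP1 (0.44 ± 0.13, adjusted p = 0.0138), which was not called on library size alone (0.01), and at 0.34 ± 0.13 in sh-Luc (adjusted p = 0.121). Nfe2l2 was lower in sh-PHLPP1 (-0.79 ± 0.11, adjusted p = 0.000101) and at -0.25 ± 0.11 in sh-Luc. Of the 9 regulators tested in all, 1 was higher and 5 lower in sh-PHLPP1 (0 and 8 on library size alone), and 1 higher and 0 lower in sh-Luc. Of 17 NRF2 target genes 10 were higher and 2 lower with OxLDL in sh-PHLPP1, and 12 higher and 0 lower in sh-Luc (9 and 4, and 12 and 0, on library size alone). Of 17 ubiquitin and shuttle factor genes 6 were higher and 5 lower in sh-PHLPP1 (4 and 10 on library size alone), and with edgeR 0 were called in sh-Luc.

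Interferon response genes are given beside the immune subunits because interferon gamma is known to induce both. With OxLDL 9 of 22 interferon response genes were higher and 6 lower in sh-PHLPP1 (7 and 8 on library size alone), where Psmb9 and Psmb10 were lower. In sh-Luc 0 were higher and 15 lower, and Psmb8, Psmb9 and Psmb10 were lower. Of all genes 26.2% were higher and 28.4% lower in sh-PHLPP1 (12 and 48.6% on library size alone), and 6.38% and 3.09% in sh-Luc. The summed level of these 22 genes was 3672 to 4113 CPM in OxLDL-treated and 2385 to 2792 CPM in untreated sh-PHLPP1 libraries. In sh-Luc libraries it was 1260 to 1353 CPM with OxLDL and 1670 to 3187 CPM untreated. The rise of the sum in sh-PHLPP1 came from part of the 22 genes, since 6 fell on the TMM scale. Their median log2 fold change with OxLDL was 0.19 in sh-PHLPP1 (-0.25 on library size alone) and -1.11 in sh-Luc. The part of the interferon response in the levels of the immune subunits was not tested. Irf1, which acts on the Psmb9 and Tap1 promoter, was not called by edgeR in either line (-0.35 ± 0.19 in sh-PHLPP1 and -0.59 ± 0.19 in sh-Luc), although on library size alone it was lower in sh-PHLPP1 (-0.78). Of the 10 peptide loading genes of MHC class I, 2 were higher and 0 lower with OxLDL in sh-PHLPP1 (0 and 4 on library size alone), and 0 higher and 2 lower in sh-Luc. Tap1, which carries proteasome peptides into the endoplasmic reticulum, was at -0.09 ± 0.18 in sh-PHLPP1 (-0.51 and called lower on library size alone) and lower in sh-Luc (-0.82 ± 0.18, adjusted p = 0.0126). Nlrc5, the transactivator of MHC class I genes, was not called in either line (0.03 ± 0.15 in sh-PHLPP1 and 0.31 ± 0.15 in sh-Luc).

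The authors' deposited tables list 3 of these comparisons. For OxLDL in sh-Luc the authors' deposited table calls 4 members higher and 6 lower at an adjusted p under 0.05, of which 2 and 3 are called in the same direction here. For the lines after OxLDL the authors' deposited table has 26 higher and 9 lower (25 and 8 shared), and for the untreated lines 0 higher and 13 lower (0 and 11 shared).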

How the data were processed

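The authors deposited raw read counts per gene (whole numbers, 39179 genes by 12 libraries), and all 12 columns were used. The submitters' processing notes name the build GRCm38 and, without versions, the tools HTSeq, DESeq2, Trimmomatic and FastQC. Which aligner, annotation release and strand setting were used is not given in the sources used here, which bears on overlapping genes. The authors also deposited log2 fold changes and adjusted p-values for 3 comparisons, used only to compare calls. Rows without a symbol (1633) carry Ensembl identifiers, held 0.397 to 0.505% of the counts and stayed in the tests. Counts were tested in R 4.3.3 with edgeR 4.0.16: filterByExpr left 13121 genes, TMM factors scaled the libraries, and a quasi-likelihood fit to the 4 group means (12 libraries, no block) gave 2-sided tests with Benjamini-Hochberg adjustment over all 13121 genes and a threshold of 0.05. The fit was tested on simulated data in which few genes changed, in a single group and equally in both directions. That simulation did not test the choice of scaling. The SE of a log2 fold change is its size over the square root of F, and 95% intervals were built on it. Positions and lengths come from GENCODE M21 and promoters from RefSeq (GRCm38.p6). Members and lists were chosen with earlier results of these data known. Values in every library are given for Psmb5 to Psmb10, Psme1, Psme2 and at most 3 called members at each end of the log2 fold changes of a comparison, at an average log2 CPM of at least 2. Of the related lists, up to 3 genes with the smallest p per list and comparison could be named, besides Phlpp1, Nfe2l1, Nfe2l2, Pomp, Akirin2, Irf1, Tap1 and Nlrc5. One further gene that could be named is not reported here. Replicate numbers mark passages. Alternatives were DESeq2 1.42.0, its size factors, library size alone, no filter, a replicate block, only the libraries compared and leaving out libraries.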

Additional observations from a re-analysis of the deposited data

Results flagged for a closer look

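The response to OxLDL differed between the lines for 29 members by the interaction test (edgeR, adjusted p under 0.05; response in sh-PHLPP1 minus that in sh-Luc, log2, TMM scale), and each was more positive in sh-PHLPP1. Of all genes 11.1% were positive and 13.6% negative in that test. Among core subunits the difference was 1.23 for Psmb6, 0.84 for Psmb3, 0.83 for Psmb7, 0.79 for Psma6, 0.78 for Psma4, 0.7 for Psma8, 0.6 for Psmb4, 0.47 for Psma3, 0.41 for Psma1, 0.41 for Psma2 and 0.38 for Psma5. Among 19S ATPases it was 1.17 for Psmc5, 1.14 for Psmc2, 0.63 for Psmc6, 0.49 for Psmc3, 0.47 for Psmc1 and 0.46 for Psmc4. For the non-ATPases Psmd8, Psmd11, Psmd14 and Psmd12 the values were 0.95, 0.82, 0.67 and 0.42. Assembly factors had 1.18 (Psmd10), 1.11 (Psmg4), 0.67 (Psmg2) and 0.66 (Psmg3). The activators had 1.1 for Psme2, 0.84 for Psme2b and 0.42 for Psme3, and the inhibitor Psmf1 0.41. On library size alone 7 of the 29 kept their call and Psma5 changed sign, to -0.006. Leaving out 1 library gave 13 to 31 positive members, beside 6.6 to 14.2% of all genes. A replicate block gave 23, beside 10.5% of all genes.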

How the results depend on the processing

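Counts are given as higher, then lower, in each comparison. On library size alone they were 10 and 12 (OxLDL in sh-PHLPP1), 1 and 3 (OxLDL in sh-Luc), 0 and 7 (untreated lines), 15 and 12 (lines after OxLDL) and 7 and 4 (interaction), with the related genes at 39 lower for OxLDL in sh-PHLPP1, 13 lower for the untreated lines, and 11 and 24 for the interaction. Of all genes tested 12 and 48.6%, 5.2 and 3.44%, 20 and 7.59%, 16.6 and 38.9%, and 4.34 and 32.1% were called on that scaling. The median of all genes moved to -0.458, -0.049, 0.145, -0.248 and -0.434. Of 49 members 15, 5, 8, 12 and 10 changed sign on that scaling, of which 7, 0, 0, 1 and 1 were called with TMM. These called values and Psmd6, called lower there, were Psmf1 (-0.055), Psma7 (-0.1), Psmb2 (-0.056), Psma1 (-0.182), Psme3 (-0.186), Psmd6 (-0.42), Psma2 (-0.091) and Psma3 (-0.1) for OxLDL in sh-PHLPP1, Psma2 (-0.028) for the lines after OxLDL and Psma5 (-0.006) for the interaction. Without a filter 1 member was higher with OxLDL in sh-Luc and 17 in the interaction, with more genes tested. With only the libraries compared, members numbered 3 lower for OxLDL in sh-PHLPP1, 4 and 5 for OxLDL in sh-Luc and 0 lower for the untreated lines. Related genes numbered 0 and 0 for the untreated lines. In these fits 23.6% of all genes were lower for OxLDL in sh-PHLPP1 and 2.44% for the untreated lines. For OxLDL in sh-Luc 12.5% were higher and 11% lower. Fewer libraries then carry the spread. DESeq2 called 6 lower for OxLDL in sh-Luc, beside 6.7% of all genes. With a replicate block the counts were 28 and 5, 1 and 3, 0 and 15, 24 and 8, and 23 and 0. The interaction calls lost were those of Psma1, Psma2, Psma5, Psmd12, Psme3 and Psmf1 (adjusted p 0.0522 to 0.0715). Same-numbered libraries, which shared a passage number, correlated at -0.301 to 0.329 in their deviations from the group mean. In each comparison 2 or 3 of 6 libraries correlated best with their own number. With 3 libraries a group these values cannot show whether the numbers pair the samples. Without replicate 1 of untreated sh-PHLPP1 and replicate 2 of untreated sh-Luc together, the counts were 4 and 6 for OxLDL in sh-Luc, 1 higher for the untreated lines and 1 lower in the interaction, with related genes at 28 lower for OxLDL in sh-Luc, 13 and 34 for the untreated lines and 38 and 15 in the interaction, and the Psmb8/Psmb5 log2 ratio at -0.026 in the interaction. Leaving out 1 library at a time gave 25 to 33 higher and 3 to 6 lower for OxLDL in sh-PHLPP1, 0 to 3 and 1 to 6 for OxLDL in sh-Luc, 0 to 1 and 6 to 21 for the untreated lines, 21 to 25 and 6 to 9 for the lines after OxLDL, and 13 to 31 and 0 to 1 for the interaction. It gave related genes 10 to 25 lower for OxLDL in sh-Luc, 0 to 13 higher and 6 to 31 lower for the untreated lines, and 16 to 33 higher and 7 to 13 lower for the interaction. Of all genes 4.87 to 23% were lower for the untreated lines in these fits, and 6.6 to 14.2% positive in the interaction. The log2 ratio difference between the untreated lines then spanned -0.273 to 0.012 (Psmb8/Psmb5) and -0.014 to 0.369 (Psmb10/Psmb7), and that of the interaction -0.312 to -0.026 (Psmb8/Psmb5). All OxLDL differences of the 3 ratios within a line stayed negative in these fits, from -2.691 to -0.521. An alternative chosen after seeing the data, the length of the principal transcript, put the immune share at 40.12, 54.41, 45.2 and 55.92% (Psmb8), 3.22% with OxLDL in sh-PHLPP1 and 5.13% with OxLDL in sh-Luc (Psmb9), and 9.69, 22.8, 11.79 and 20.35% (Psmb10), in the order OxLDL-treated and untreated sh-PHLPP1, OxLDL-treated and untreated sh-Luc. The cause of these changes was not tested.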
